A study of Homo sapiens with 12 samples.

Results

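The Krüppel-like factors KLF3, KLF4, KLF5, KLF6, KLF9, KLF10, KLF11 and KLF13, together with SP1 and WT1, are zinc finger transcription factors that bind GC-rich DNA sites related to the site of EGR1. These 10 genes were taken by name from a table of 22963 gene names, and all 10 had a row with a value in each of the 12 libraries. RNA was sequenced from 2 human hepatoma cell lines, in 4 groups of 3 libraries each. PLC/PRF5 cells carried either the empty vector or the coding sequence of EGR1 in a lentiviral plasmid with a CMV promoter, which also holds copGFP and a puromycin resistance gene. MHCC97H cells were either parental or labelled as EGR1 knockout, a line made by CRISPR/Cas9 and grown from a single clone. The parental libraries are titled parental, while their data columns are named Mock. What Mock stands for is not given in the sources used here. Which of the clones made was sequenced is not given in the sources used here, and the parental cells are not described as carrying a CRISPR vector, so that clone, vector and EGR1 allele cannot be told apart in that comparison. The labels call the 3 libraries of a group biological replicates without saying whether they came from separate cultures, and p-values measure the spread between these libraries.

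Factors of the Krüppel-like and SP families share 3 C2H2 zinc fingers at the carboxyl end of the protein and bind GC boxes and CACCC boxes, so that several of them can compete for the same promoter. Some recruit acetyltransferases and raise transcription, whereas others recruit the corepressors CtBP or SIN3A and lower it. WT1 belongs to the family of EGR1 and recognises nearly the same letters as EGR1. In liver cells SP1 serves many housekeeping promoters, and KLF6 and KLF4 have been studied as growth-limiting factors.

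EGR1, the targeted gene, was measured first. It was at 1.81 ± 0.328 FPKM (fragments per kilobase of transcript, scaled to library size, mean ± SD, n = 3) with the vector (1.97, 1.43 and 2.03 FPKM) and at 52.9 ± 3.10 FPKM with overexpression (56.3, 50.2 and 52.2 FPKM). In MHCC97H it was at 20.2, 23.1 and 21.2 FPKM in the parental libraries and at 35.2, 50.3 and 32.9 FPKM in the libraries labelled knockout. The EGR1 mRNA was thus higher, not lower, in every library labelled knockout, and FPKM count a transcript whether or not it is edited. The log2 difference was 0.83 (adjusted p = 0.00126 by limma), and 0.42 with a correction for GC content and length (adjusted p = 0.0608). The paper states that its knockout clones were checked by western blot and by DNA sequencing, and FPKM show neither protein nor DNA sequence. The libraries were checked with marker lists. Hepatocyte markers summed to between 1745 and 1894 FPKM with the vector, between 2643 and 3592 FPKM with EGR1, between 48.5 and 53.6 FPKM in parental MHCC97H and between 65.8 and 70.4 FPKM in the libraries labelled knockout. SERPINA1 made up most of the sums in PLC/PRF5, with a mean of 1372 FPKM with the vector and 2580 FPKM with EGR1. TTR was listed at 0 with EGR1. In PLC/PRF5, 9 of 10 of these markers had a mean of at least 1 FPKM, against 5 in parental MHCC97H, where ALB and AFP were among those below, and 6 in the libraries labelled knockout. Of the 4 epithelial markers KRT8 and KRT18 passed 1 FPKM in every group and summed with the others to between 1446 and 2643 FPKM over all libraries, while EPCAM did not pass in any group. Fibroblast markers, of which LUM alone passed 1 FPKM, summed to between 7.52 and 10.9 FPKM in parental MHCC97H, to between 1.05 and 1.54 FPKM in the libraries labelled knockout and to at most 1.91 FPKM in PLC/PRF5. Endothelial markers summed to at most 8.51 FPKM in any library. Leukocyte markers summed to between 125 and 215 FPKM in PLC/PRF5 and between 26.6 and 56.3 FPKM in MHCC97H, nearly all from LYZ and CD68, and PTPRC, which defines leukocytes, was listed at 0 in PLC/PRF5. The part of these differences in the results was not tested, and in bulk RNA fewer cells of a type and less RNA per cell cannot be told apart.

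The promoters of the factors were searched for the letters that such factors bind, and the windows shown are those with the EGR1 and WT1 letters and examples of GC boxes near a start site. RefSeq gave the 250 bases before and 50 bases after each start site on GRCh38.p14, and 8 of the 10 genes (all but KLF3 and KLF10) matched by symbol, with 14 windows of 300 bases. Both strands were searched for the GC box GGGCGG, for the EGR1 and WT1 letters GCGTGGGCG or GCGGGGGCG, and for the KLF box CACCC. A GC box was in 9 of the 14 windows, against 44.95% of all 35116 windows, the EGR1 and WT1 letters were in 2 of 14, against 5.77%, and a KLF box was in 6 of 14, against 59.9%. SP1 start 2 had the most GC boxes of these windows, with 10, followed by KLF11 start 2 with 7, whereas the KLF9 window held none of the searched letters. The EGR1 and WT1 letters were in the windows of KLF6, at chr10:3785256-3785285 on the minus strand with the match beginning 65 bases before the start, and of SP1 start 2, at chr12:53380611-53380640 on the plus strand with the match beginning 22 bases before the start. In both, the match is GCGGGGGCG, which 5.07% of all windows hold, and it overlaps a GC box that begins 4 bases further on. The other form, GCGTGGGCG, is in 0.79% of all windows and was in none of the 14. The other windows shown are GC boxes of KLF4 (chr9:107489828-107489857, minus strand, 76 bases before the start), KLF5 start 2 (chr13:73058945-73058974, plus strand, 48 bases before, with the box read on the opposite strand) and KLF11 start 2 (chr2:10044154-10044183, plus strand, 55 bases before). The capitals mark the matched letters, each written 5′ to 3′ on the strand of the gene, and a match is a description of the letters and not a measured binding site.
KLF6: gggggagccagGCGGGGGCGgagggggagg
SP1 start 2: gggctggagccGCGGGGGCGgcccgagcag
KLF4: gaagaaagggagGGGCGGggcatgggagaa
KLF5 start 2: ggcgatcgggccCCGCCCccccggagttgg
KLF11 start 2: gcacggttttggGGGCGGggcacgcggccg

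Levels were compared between genes in FPKM, which are per transcript length. In PLC/PRF5 with the vector, KLF5, an activator of epithelial proliferation, was highest at 38.8 ± 2.31 FPKM and was above every other of the 10 genes in each library. It was followed by KLF13 at 24.8 ± 3.50 FPKM and KLF6 at 21.4 ± 1.86 FPKM, whose libraries overlapped. KLF3, KLF4, KLF10, SP1, KLF9 and KLF11 came next in this order, and among them KLF10 and SP1 were the neighbours that overlapped. WT1 was listed at 0 in all 6 PLC/PRF5 libraries. The order of means was the same with EGR1. There KLF13 and KLF6 no longer overlapped, while KLF3 overlapped with KLF4, KLF4 with KLF10, and KLF9 with KLF11.

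In parental MHCC97H the upper end was made of KLF5 at 35.7 ± 3.28 FPKM, KLF10 at 32.8 ± 3.16 FPKM and SP1 at 28.8 ± 0.778 FPKM, and each overlapped with its neighbour in this order. KLF9 was lowest at 1.41 ± 0.0116 FPKM. In the libraries labelled knockout KLF13 led with 27.3 ± 2.78 FPKM, above every library of the next gene, KLF4 at 21.6 ± 0.317 FPKM, and KLF5 stood behind SP1 and KLF10 at 17.96 ± 1.53 FPKM. KLF4, SP1, KLF10 and KLF5 formed a run in which each overlapped with the next.

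**Figure D1:**
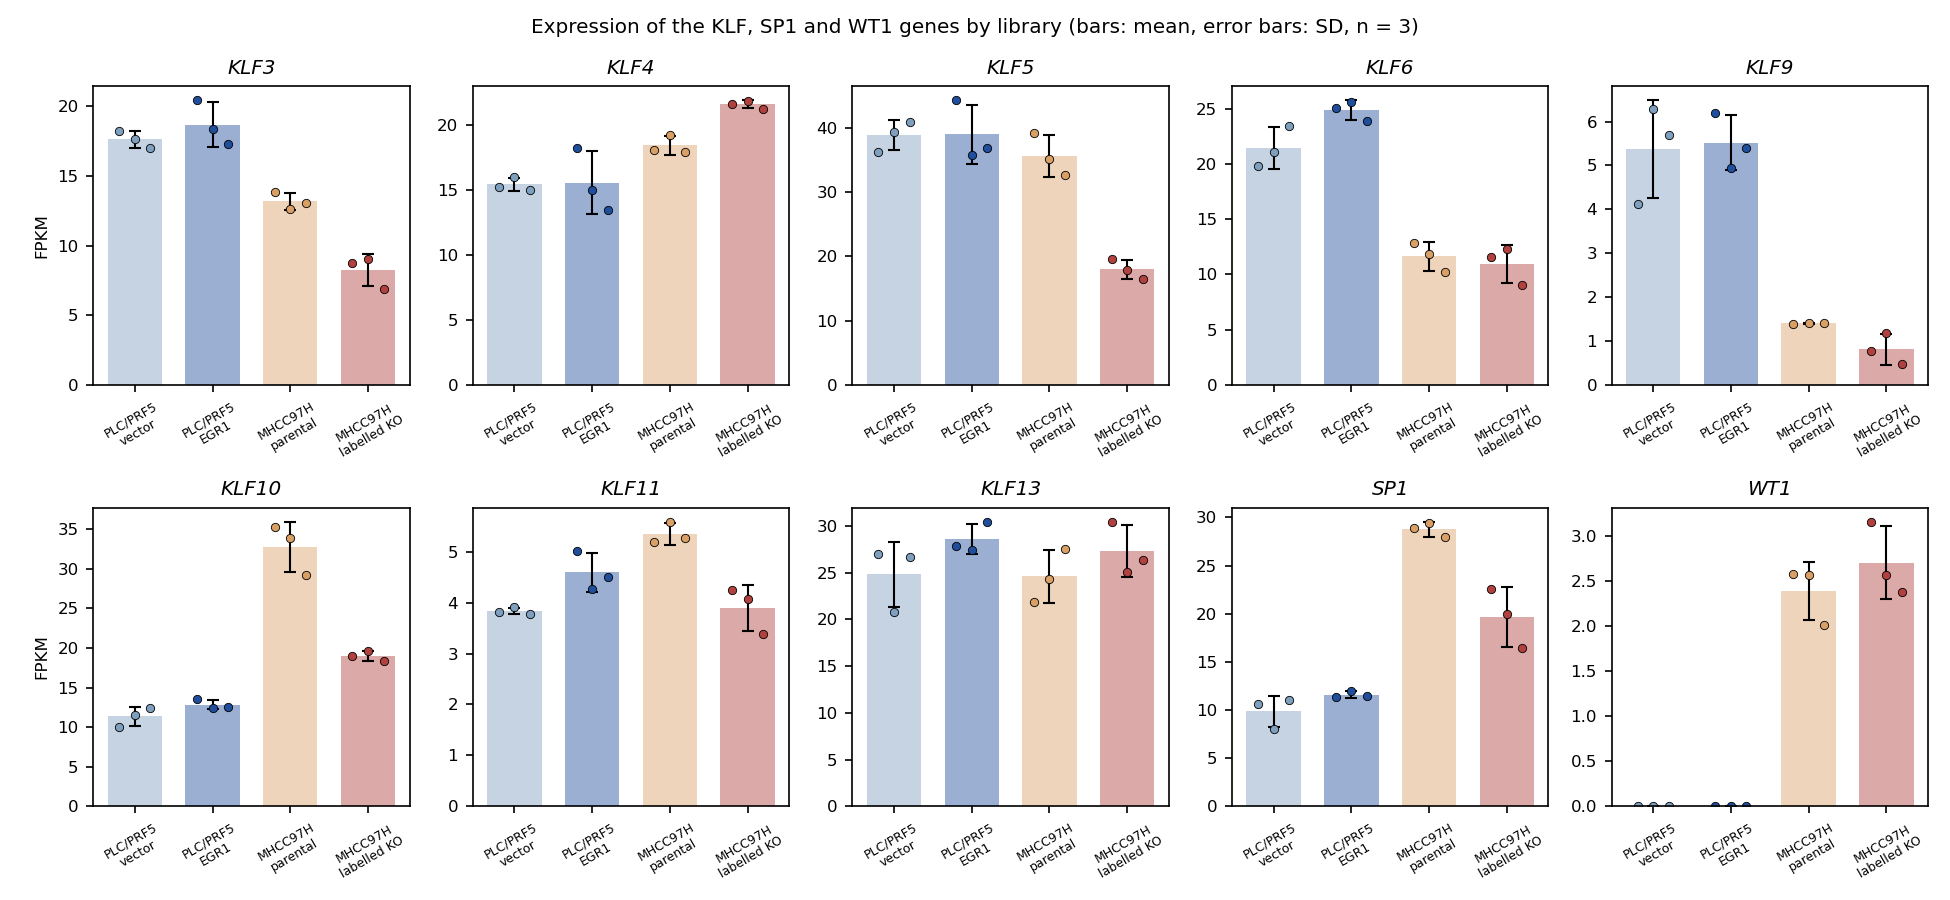
FPKM of each of the 10 genes in the 12 libraries, with a panel per gene, bars for group means, error bars for the SD (n = 3) and a point per library. KLF5 and KLF10 are lower in every library labelled knockout than in every parental library, WT1 is listed at 0 in PLC/PRF5, and the KLF4 and KLF5 bars of the PLC/PRF5 groups are level with each other.

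The summed FPKM of the 10 genes was 149 ± 6.38 with the vector, 161 ± 9.30 with EGR1, 174 ± 6.14 in parental MHCC97H and 132 ± 10.3 in the libraries labelled knockout (n = 3 each). The sums of the last pair did not overlap, with a lowest parental library of 167 FPKM and a highest library labelled knockout of 142 FPKM. KLF5 held 26.1% of the sum with the vector and 24.1% with EGR1. Its share was 20.5% in parental MHCC97H and 13.6% in the libraries labelled knockout, while the share of KLF4 was 10.6% and 16.4% and that of KLF13 14.2% and 20.7%. A share also moves with the sum, which was lower in the libraries labelled knockout. In FPKM KLF4 was at 18.4 and 21.6, and KLF13 at 24.6 and 27.3 with overlapping groups.

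**Figure D2:**
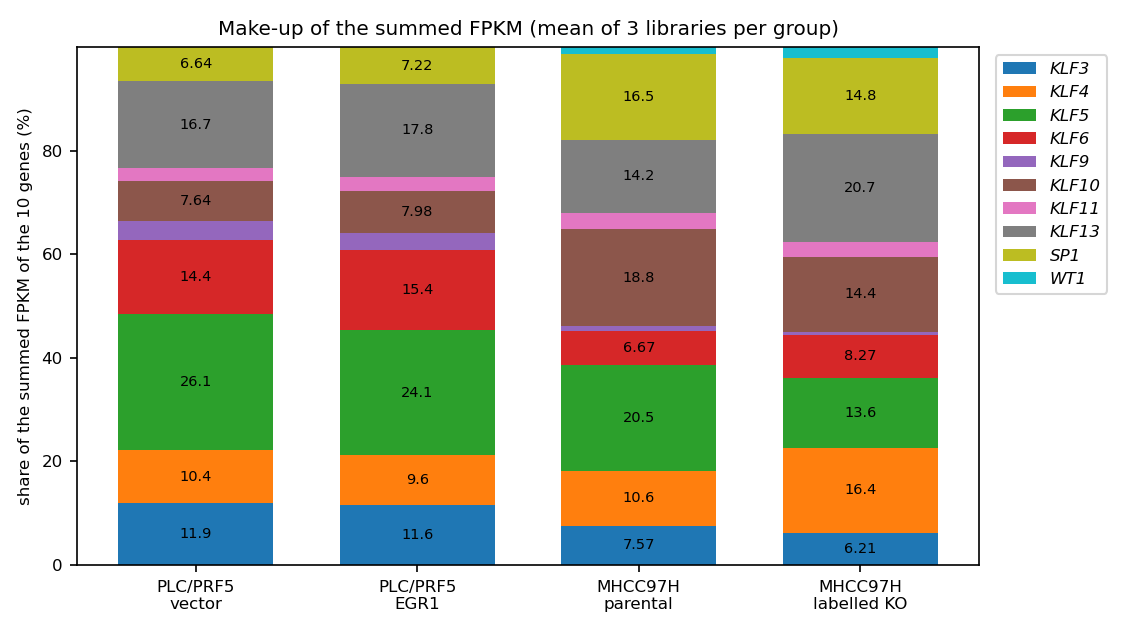
Share of each gene in the summed FPKM of the 10 genes, in percent, as the mean of 3 libraries per group, with shares over 4% printed in the bars. KLF10 and SP1 take 18.8% and 16.5% in parental MHCC97H against 7.64% and 6.64% with the vector, and KLF5 takes 13.6% in the libraries labelled knockout.

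The comparison of EGR1 overexpression with the vector asks which genes change when EGR1 is raised in PLC/PRF5 cells. None of the factors passed the test. Of the 9 tested, 0 had an adjusted p under 0.05 by limma with Benjamini-Hochberg adjustment, while 29.6% of the 11671 genes tested did (19.2% higher and 10.4% lower), and at an unadjusted p under 0.05 the count was 1 of 9 (KLF6) against 42.5% of all genes. The median log2 difference of the 9 genes was 0.17, beside 0.09 over all genes tested. Every other fit and threshold tried also gave 0, the GC and length correction described below included, with which 33.8% of all genes were called.

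SP1, the ubiquitous activator at GC boxes, was at 10.6, 8.03 and 11.01 FPKM with the vector and at 11.3, 12.01 and 11.5 FPKM with EGR1. All libraries with EGR1 were above all vector libraries, and the gap between the groups was smaller than the spread of the vector group. The log2 difference was 0.22, with a 95% interval from -0.05 to 0.49. KLF6, which is an immediate early gene in many cell types, was at 19.8, 21.1 and 23.5 FPKM with the vector and at 25.1, 25.6 and 23.8 FPKM with EGR1, a log2 difference of 0.21 (interval 0.0026 to 0.41) with an adjusted p of 0.114 by limma. Those groups did not overlap either, and the closest pair of libraries was nearly level. KLF10, KLF11 and KLF13, which repress through SIN3A, also had all EGR1 libraries above all vector libraries, with log2 differences of 0.17, 0.21 and 0.21. In all, the groups did not overlap for 5 of 9 factors, beside 47.7% of all genes tested. The exact permutation p was 0.1 for each of these 5, the smallest that 3 against 3 libraries allow.

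KLF5 was at 36.3, 39.4 and 40.8 FPKM with the vector and at 44.3, 35.8 and 36.9 FPKM with EGR1, so that the groups overlapped, with a log2 difference of 0.0018 and an interval from -0.23 to 0.23. KLF4, a factor of pluripotency and of epithelial differentiation, was at 15.2, 16.0 and 15.0 FPKM with the vector and at 18.2, 15.0 and 13.4 FPKM with EGR1. Its log2 difference was 0.0015, with an interval from -0.25 to 0.26. For both genes, changes up to these bounds could not be told from 0. KLF3 and KLF9 had log2 differences of 0.076 and 0.044, and their groups overlapped.

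The comparison of the libraries labelled knockout with parental MHCC97H asks which genes differ between these groups, and EGR1 mRNA was higher in the libraries labelled knockout. It cannot tell EGR1 from the clone and the vector. By limma, 7 of the 10 factors had an adjusted p under 0.05, while 66.3% of the 11577 genes tested did, so the share was near the background. Of these, 6 were lower (31.5% of all genes) and 1 was higher (34.8% of all genes). The median log2 difference of the 10 was -0.40, beside 0.02 over all genes. The groups did not overlap for 7 of 10 factors, beside 71.8% of all genes. Without parental replicate 2 the number called was 4.

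Among the activators, KLF5 (chr13:73054976-73077542, plus strand of GRCh38 in GENCODE release 29) fell most of the 10. It was at 39.2, 35.1 and 32.7 FPKM in the parental libraries and at 19.6, 17.8 and 16.5 FPKM in the libraries labelled knockout. Every library labelled knockout was below every parental library, by more than the spread within either group. The log2 difference was -0.95 (SE 0.10, adjusted p = 9.10e-05 by limma), a fall to 0.517 times the parental value on the scale of FPKM + 1. SP1 (chr12:53380176-53416446, plus strand) was at 28.9, 29.5 and 27.9 FPKM in the parental libraries and at 22.6, 20.0 and 16.5 FPKM in those labelled knockout. Here too the groups did not overlap, and the libraries labelled knockout spread more widely. The log2 difference of SP1 was -0.54 (SE 0.12, adjusted p = 0.00306 by limma).

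KLF4 (chr9:107484852-107490482, minus strand) was the factor that was higher, at 18.05, 19.2 and 17.9 FPKM in the parental libraries and at 21.6, 21.8 and 21.2 FPKM in those labelled knockout. The groups did not overlap. The log2 difference was 0.22 (SE 0.08, adjusted p = 0.0406 by limma), and the call was lost when any of the 6 libraries was left out, with adjusted p from 0.0692 to 0.0970. It was also lost with scaling to a common total (adjusted p = 0.491 by limma) and with quantile normalization. KLF6 was at 12.8, 11.9 and 10.2 FPKM in the parental libraries and at 11.5, 12.3 and 8.99 FPKM in those labelled knockout, which overlapped, with a log2 difference of -0.09 (interval -0.38 to 0.21).

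Among the repressors, KLF10, which is induced early by TGF-beta, was at 35.2, 33.8 and 29.2 FPKM in the parental libraries and at 18.9, 19.6 and 18.4 FPKM in those labelled knockout. The lowest parental library stood well above the highest library labelled knockout. KLF10 fell by 0.75 on the log2 scale (SE 0.10, adjusted p = 2.07e-04 by limma). Its relative KLF11 (chr2:10042849-10054836, plus strand) was at 5.18, 5.59 and 5.26 FPKM against 4.24, 4.07 and 3.38 FPKM, without overlap. KLF11 fell by 0.38 (SE 0.11, adjusted p = 0.0135 by limma), and the call was lost without parental replicate 2 (adjusted p = 0.0603). KLF3 (chr4:38664196-38701042, plus strand), which recruits CtBP, was at 13.8, 12.6 and 13.1 FPKM against 8.73, 9.02 and 6.91 FPKM, again without overlap, and fell by 0.63 (SE 0.11, adjusted p = 0.00133 by limma).

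KLF9 (chr9:70384597-70414624, minus strand), a factor induced by glucocorticoid and thyroid hormone, was at 1.40, 1.42 and 1.41 FPKM in the parental libraries and at 0.777, 1.19 and 0.485 FPKM in those labelled knockout. KLF9 passed the filter of a mean of 1 FPKM only through the parental libraries, where it is higher, so that its call is a description, and of the other 9 factors 6 were called. The libraries labelled knockout spread more widely than the parental libraries, which were level. The log2 difference was -0.42 (SE 0.15, adjusted p = 0.0301 by limma). The call remained without replicate 2 of the libraries labelled knockout and was lost without any other of the 6 libraries, with adjusted p up to 0.101. KLF13 was at 21.9, 24.3 and 27.6 FPKM in the parental libraries and at 30.4, 25.1 and 26.4 FPKM in those labelled knockout, which overlapped, with a log2 difference of 0.15 (interval -0.10 to 0.40).

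WT1 (chr11:32387775-32435630, minus strand), a regulator of kidney and gonad development, was at 2.57, 2.57 and 2.02 FPKM in the parental libraries and at 3.16, 2.57 and 2.38 FPKM in those labelled knockout. The groups overlapped, and the log2 difference was 0.13 (interval -0.16 to 0.41). WT1, KLF3 and KLF11 overlap annotated genes on the other strand (WT1-AS, KLF3-AS1 and AC104794.4), and KLF13 holds the pseudogene UBE2CP4 on its own strand. Whether the libraries keep strand is not given in the sources used here, so reads of these partners cannot be told apart.

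The changes in MHCC97H followed the base composition of the transcripts. GC content and length accounted for 52.5% of the variance of the log2 differences over the 10806 genes with an annotated transcript, against 17.9% in PLC/PRF5. The Spearman correlation of the log2 differences with GC content was 0.75 in MHCC97H and -0.44 in PLC/PRF5, so the trends ran in opposite directions. Of the factors, the 3 with a transcript GC content above the median of 48.3% (KLF4, KLF13 and WT1) had positive log2 differences, and the 7 below it had negative ones. When the trend with GC content and length was removed from every gene, 5 of 10 factors passed by limma, all lower, beside 47.5% of all genes called and 23.0% called lower. KLF5 and KLF10 hardly moved, with log2 differences of -0.92 and -0.74. KLF11 was at -0.33 and SP1 at -0.25 (adjusted p = 0.0179 by limma), less than its value without the correction. KLF13 turned from 0.15 to -0.24 and passed (adjusted p = 0.0135 by limma), KLF4 turned from 0.22 to -0.19 (adjusted p = 0.0618), and KLF3 and KLF9 no longer passed, at -0.20 and -0.32 (adjusted p = 0.0536 and 0.0932). The correction also removes any change in the cells that follows GC content, and the cause of the trend was not tested.

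**Figure D3:**
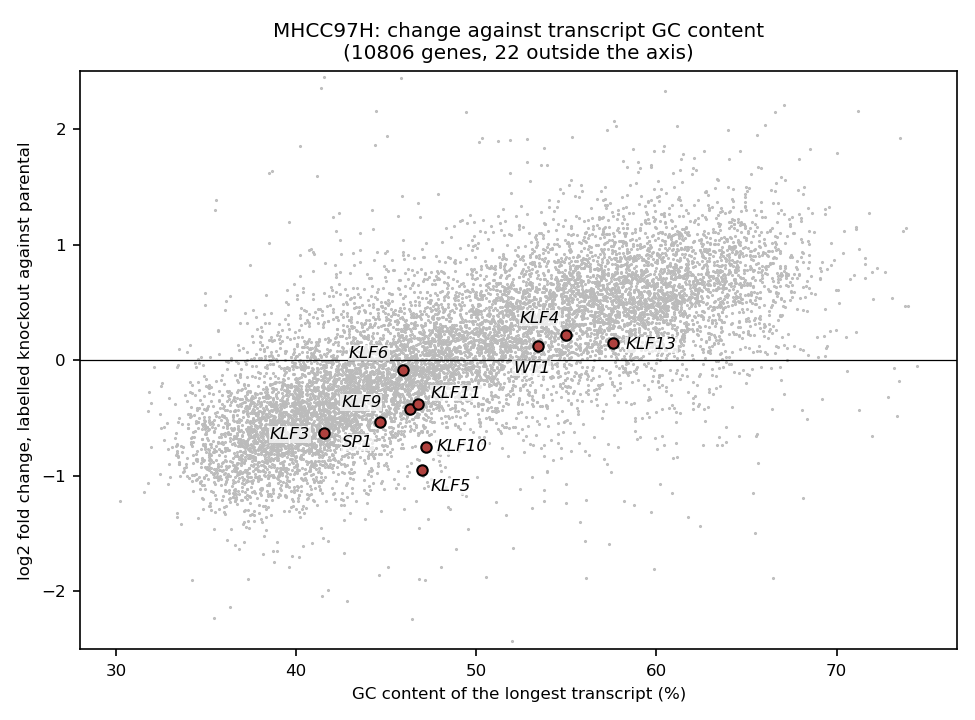
Log2 fold change of FPKM + 1 between the libraries labelled knockout and parental MHCC97H against the GC content of each gene's longest transcript in percent, for 10806 genes (grey points, 22 of them outside the axis) and the 10 factors (red points). The grey points climb from left to right, most factors lie within them, and KLF5 and KLF10 lie at their lower edge.

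**Figure D4:**
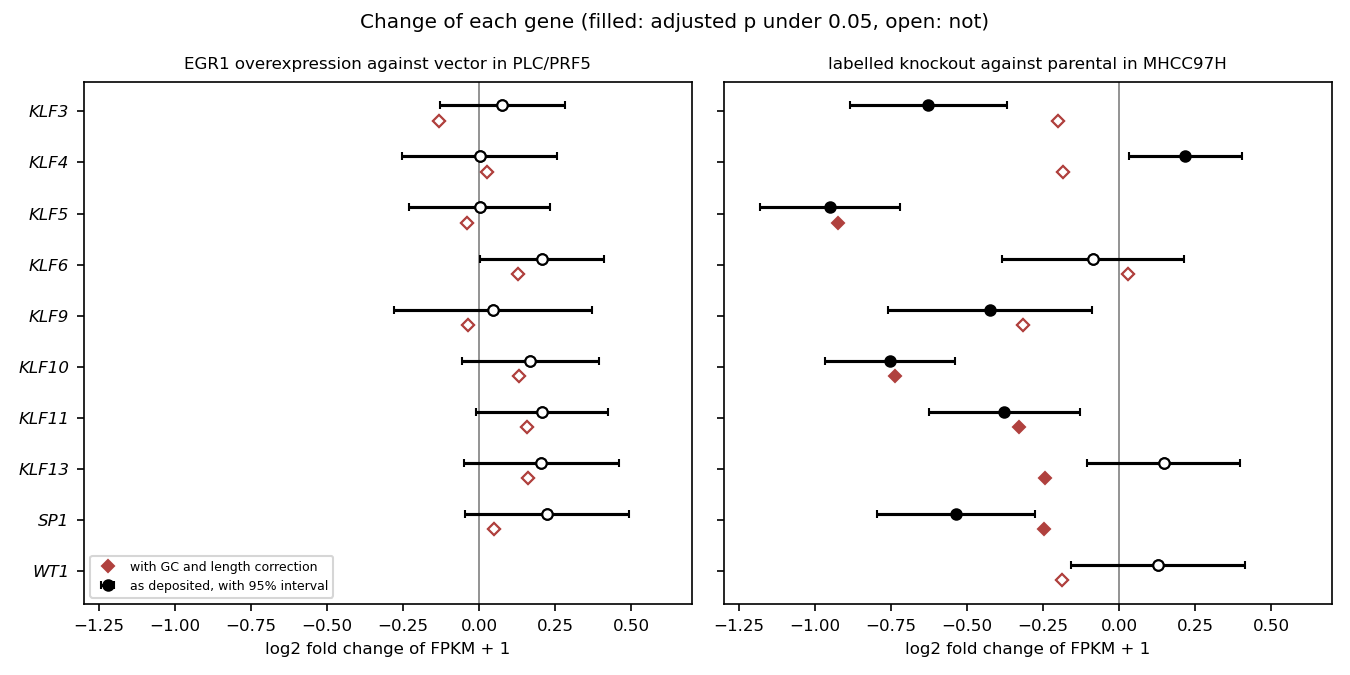
Log2 fold change of FPKM + 1 for each factor, with EGR1 overexpression against the vector on the left and the libraries labelled knockout against parental on the right. Black circles with 95% intervals are the values as deposited, red diamonds the values with the GC and length correction, and filled symbols have an adjusted p under 0.05. No symbol is filled on the left, and KLF5, KLF10, KLF11 and SP1 are filled in both series on the right.

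Whether the change of a factor differed between these comparisons, which share no library, was tested as the log2 change in PLC/PRF5 minus that in MHCC97H. By limma, 5 of 10 factors differed at an adjusted p under 0.05, beside 63.8% of the 12090 genes tested, and all 5 had a positive difference, beside 33.4% of all genes positive and 30.4% negative. The differences were 0.95 for KLF5 (SE 0.14, adjusted p = 1.33e-04 by limma), 0.92 for KLF10, 0.76 for SP1, 0.70 for KLF3 and 0.58 for KLF11. For each of them the value in MHCC97H made up most of the difference. Over all genes with an annotated transcript, GC content and length accounted for 49.8% of the variance of this difference. Its Spearman correlation with GC content was -0.72. All 5 factors are among the 7 with a transcript GC content below the median, and the part of the trend in their shared direction was not tested. With the GC and length correction KLF5, KLF10 and KLF11 stayed at 0.89, 0.88 and 0.50, SP1 was at 0.31 (adjusted p = 0.0424 by limma), KLF13 passed at 0.38, and KLF3 did not pass at 0.09 (adjusted p = 0.540), beside 50.5% of all genes.

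The control groups were set side by side to show how the lines differ in these factors. This comparison uses the vector and parental libraries again, so it is not independent of those above, and the cell line and the vector cannot be told apart. By limma, 8 of 10 factors differed at an adjusted p under 0.05, beside 79.8% of the 12046 genes tested, with 5 higher in MHCC97H (38.8% of all genes) and 3 lower (40.9%). WT1 is among the 5, but it passed the filter on low values only through the parental libraries and so had to differ, and of the other 9 factors 7 were called. The groups did not overlap for 8 of 10, beside 81.0% of all genes.

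SP1 and KLF10 were the factors with the largest positive differences among those above 0 FPKM in both lines. SP1 was at 10.6, 8.03 and 11.01 FPKM with the vector, below every parental library (28.9, 29.5 and 27.9 FPKM), a log2 difference of 1.46 (SE 0.12, adjusted p = 4.76e-06 by limma). KLF10 was at 10.1, 11.6 and 12.4 FPKM with the vector, again below every parental library, a log2 difference of 1.45 (SE 0.11). WT1 was listed at 0 with the vector and was above 2 FPKM in each parental library, and no fold is given against a group at 0. KLF11 and KLF4 were also higher in MHCC97H, by 0.39 and 0.24 on the log2 scale. The call of KLF4 was lost without vector replicate 1, vector replicate 3 or parental replicate 2, with adjusted p up to 0.0982 by limma. With the GC and length correction 8 of the 9 factors other than WT1 were called, KLF5 included at -0.18 (adjusted p = 0.0489 by limma), beside 80.9% of all genes.

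Lower in MHCC97H were KLF9, KLF6 and KLF3. KLF9 was at 4.12, 6.28 and 5.70 FPKM with the vector and at 1.40, 1.42 and 1.41 FPKM in the parental libraries, far apart, with a log2 difference of -1.39 (SE 0.14, adjusted p = 1.68e-05 by limma). The log2 differences of KLF6 and KLF3 were -0.83 and -0.40. KLF5 and KLF13 did not pass, with log2 differences of -0.12 (interval -0.33 to 0.09) and -0.0084 (interval -0.30 to 0.28).

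Further genes of the same pathway were taken from lists. Of 18 other KLF and SP genes, 7 passed the filter on low values in PLC/PRF5, where 1 was lower and 0 higher with EGR1, beside 29.6% of all genes called, and 5 in MHCC97H, where 2 were higher and 1 lower, beside 66.3%, with medians of 0.18 and 0.04. KLF2, a flow-responsive factor of endothelium, was the gene that fell with EGR1, from 1.87 ± 0.514 FPKM with the vector to 0.797 ± 0.196 FPKM (log2 difference -0.67, adjusted p = 0.0105 by limma), and it passed the filter only through the vector group. In MHCC97H its log2 difference was -0.13, and -0.87 with the GC and length correction, where it passed (adjusted p = 0.00146 by limma). In MHCC97H SP3, which shares its site with SP1, fell by 0.77 (adjusted p = 0.0255 by limma) with overlapping groups, and lost its call with the GC and length correction at -0.17 and without parental replicate 1, or without replicate 1 or 3 of the libraries labelled knockout. KLF16, a repressor, was higher there by 0.71 (adjusted p = 4.02e-04 by limma), and with the correction by 0.037 without passing, whereas with EGR1 it was at 0.09 and, with the correction, passed at 0.30 (adjusted p = 0.00799).

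Of 20 partners of the factors, among them corepressors, acetyltransferases and ubiquitin ligases, 2 were higher and 1 lower with EGR1 among 20 tested, beside 29.6% of all genes called, with a median of 0.15, and 3 were higher and 10 lower among 19 tested in MHCC97H, beside 66.3%, with a median of -0.31. The 13 called in MHCC97H, a share near that of all genes, became 6 with the GC and length correction, with which the share of all genes was 47.5%. FBXW7, a ubiquitin ligase subunit that targets KLF5, rose by 0.49 with EGR1 (adjusted p = 0.00720 by limma) and fell by 0.37 in the libraries labelled knockout (adjusted p = 0.0236). The latter call was lost with the correction, at -0.22, and without parental replicate 1 or 2 or replicate 3 of the libraries labelled knockout. WWP1, another ubiquitin ligase of KLF5, was at 30.6 ± 3.04 FPKM in parental MHCC97H and at 17.5 ± 3.13 FPKM in the libraries labelled knockout, where it fell by 0.78 (adjusted p = 0.00109 by limma), and with the correction by 0.22. HDAC2, a histone deacetylase of the SIN3A complex, rose by 0.41 with EGR1 and fell by 0.73 in the libraries labelled knockout, and with the correction both values were near 0, at -0.010 and -0.0051. The rise with EGR1 had an adjusted p of 0.0432 by limma and was called in 6 of 16 fits. The call was lost without vector replicate 1 or 3, without replicate 1 or 3 of the EGR1 libraries, with the correction and in other fits.

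Of 12 genes known as targets of GC-box factors, 3 were higher and 1 lower with EGR1, beside 29.6% of all genes called, with a median of 0.10, and in MHCC97H 4 were higher and 3 lower, beside 66.3%, with a median of 0.15. AREG, a ligand of the EGF receptor, was at 53.7 ± 4.54 FPKM with the vector and 92.1 ± 4.76 FPKM with EGR1, a rise of 0.77 (adjusted p = 8.66e-04 by limma). It was at 6.23 ± 0.709 FPKM in parental MHCC97H and 4.02 ± 0.336 FPKM in the libraries labelled knockout, a fall of 0.52 (adjusted p = 0.00327), and the correction left both calls, at 0.71 and -0.51. TYMS, the thymidylate synthase gene, went the other way, with log2 differences of -0.32 with EGR1 and 0.48 in the libraries labelled knockout, and its call with EGR1 was lost without vector replicate 3 or without replicate 2 or 3 of the EGR1 libraries (adjusted p up to 0.101 by limma). With EGR1 it was called in 11 of 16 fits.

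SMAD7, an inhibitor of TGF-beta signalling that KLF10 can repress, was higher by 0.38 in both comparisons, and by 0.40 and -0.13 with the correction. Its call with EGR1 was lost without replicate 2 or 3 of the EGR1 libraries, and that in MHCC97H without parental replicate 2. IGF1R, a growth factor receptor gene with a GC-rich promoter, was at 0.904 FPKM with the vector and 1.54 FPKM with EGR1, and it passed the filter only through the EGR1 libraries. It was higher by 0.42 (adjusted p = 0.0277 by limma), and the call was lost with the correction, at 0.27 (adjusted p = 0.0566), and without any single library other than vector replicate 3. In all, IGF1R was called with EGR1 in 7 of 16 fits. PDGFA, a growth factor whose promoter EGR1 and SP1 share, was higher in the libraries labelled knockout by 0.60 (adjusted p = 0.00311 by limma), and with the correction by 0.25 (adjusted p = 0.0582). In the control comparison 4 of 6 other KLF and SP genes, 12 of 20 partners and 9 of 12 targets passed, and in the difference of the EGR1 comparisons 4 of 6, 13 of 20 and 7 of 12, beside the 79.8% and 63.8% of all genes given above.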

How the data were processed

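The authors selected mRNA with oligo(dT), treated the libraries with duplex-specific nuclease, which degrades double-stranded cDNA of abundant transcripts, sequenced them on an Illumina NovaSeq instrument and deposited FPKM per gene for the 12 libraries. Per the submitters' processing notes StringTie and hg38 were used, and the aligner is not given in the sources used here. FPKM hold no read numbers, so the depth is unknown and no counting interval could be given. Sums of FPKM ran from 376335 to 437652 per library, and replicates of a group correlated at 0.993 to 0.997 on the log2 scale. Of the 22963 names, 3031 were assembled loci.

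Values were taken as log2(FPKM + 1). Each comparison was fitted on its own libraries with limma 3.58.1 in R 4.3.3 whose variance prior followed the mean level. Genes entered with at least 1 FPKM on average in the libraries fitted, and tests were 2-sided, with Benjamini-Hochberg adjustment over all genes tested and a threshold of 0.05. The fits were also run on simulated data with independent noise and no trend with GC content or length, so that run cannot show how they behave under such a trend. GC content and length came from the longest GENCODE release 29 transcript, and the correction subtracted splines (5 degrees of freedom) of both. The members and gene lists were chosen with earlier results of these data known. Named genes were the 10 factors and EGR1, and from each list the genes past the threshold in both EGR1 comparisons and the 2 largest changes past the threshold in each. A gene that this rule names among the targets is not reported here. The lists were other KLF and SP genes, partners, GC-box targets, and markers of hepatocytes, epithelium, fibroblasts, endothelium and leukocytes. The alternatives were other pseudocounts, filters, scalings, thresholds and fits, the correction, the replicate block and leaving out each library. Figures used matplotlib 3.10.9 and Python 3.11.15.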

Additional observations from a re-analysis of the deposited data

Results flagged for a closer look

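For 5 of the 10 factors the change with EGR1 overexpression in PLC/PRF5 and that in the MHCC97H libraries labelled knockout differed from each other. By the same test of the difference (limma, all 4 groups, Benjamini-Hochberg adjustment), 63.8% of the 12090 genes tested differed. The first change minus the second was 0.95 on the log2 scale for KLF5, 0.92 for KLF10, 0.76 for SP1, 0.70 for KLF3 and 0.58 for KLF11. With the GC and length correction KLF5, KLF10 and KLF11 stayed at 0.89, 0.88 and 0.50. SP1 was then at 0.31, and KLF3 did not pass, at 0.09 (adjusted p = 0.540 by limma). The libraries entering the first change are of another cell line than those of the second, so the line and the way EGR1 was altered cannot be told apart.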

How the results depend on the processing

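The number of factors called with EGR1 overexpression was 0 under every alternative run. In MHCC97H it was 7, with 4 at an adjusted p under 0.01, 0 at a change of at least 2-fold, and 4 to 6 without single libraries. The control comparison called 8, with 4 at a change of at least 2-fold and 6 to 8 without single libraries, and the difference of the EGR1 comparisons called 5, with 0 at a change of at least 2-fold and 5 to 6 without single libraries. The shares of all genes called in the fits reported were 29.6%, 66.3%, 79.8% and 63.8% in this order. Without single libraries 1919 to 4007, 6419 to 7521, 8898 to 9556 and 7096 to 7819 of all genes were called. Over all results and alternatives, 1230 of 1423 values had the sign and the call reported, or a count within 1.5 times of it.

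Signs turned for log2 differences that were not called and also for some that were. The latter were HDAC2 with EGR1, at 0.41 as reported, and in MHCC97H KLF4 at 0.22 and SMAD7 at 0.38. With EGR1 overexpression, the GC and length correction gave -0.13 for KLF3, -0.039 for KLF5, -0.038 for KLF9, -0.010 for HDAC2 and -0.079 for SP3. Scaling to a common total gave -0.025 for KLF4 and -0.026 for KLF5, and quantile normalization gave -0.088 for KLF4, -0.0020 for KLF5 and -0.12 for KLF9. In MHCC97H the correction gave -0.19 for KLF4, 0.029 for KLF6, -0.24 for KLF13, -0.19 for WT1 and -0.13 for SMAD7, and KLF13 was at -0.00080 with scaling and -0.00057 with quantile normalization. In the control comparison KLF5 was at 0.084 with quantile normalization, and KLF13 at 0.097 with scaling, 0.13 with quantile normalization and 0.13 with the correction. In the difference of the EGR1 comparisons the correction gave 0.19 for KLF4 and 0.19 for WT1.

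Scaling to a common total moved the median of all genes in MHCC97H by -0.13 and the share of calls that were higher from 52.5% to 41.5%, and by 0.10 in the control comparison. In PLC/PRF5 quantile normalization moved that share from 64.8% to 46.0%. Of all genes 3457 were called with EGR1, against 1468 at an adjusted p under 0.01, 206 at a change of at least 2-fold, 2246 without vector replicate 3, and 1919 and 2208 without replicates 2 and 3 of the EGR1 libraries. At a change of at least 2-fold, 1029 of 7671 genes remained in MHCC97H, 4431 of 9607 in the control comparison and 2598 of 7710 in the difference. With EGR1, other KLF and SP genes called went from 1 to 2 with the correction or with no filter, partners from 3 to 6 without vector replicate 2, and targets from 4 to 1 without replicate 2 or 3 of the EGR1 libraries. In MHCC97H, other KLF and SP genes went from 3 to 5 with no filter and to 1 without parental replicate 1, and partners from 13 to 6 with the correction and to 8 without parental replicate 2. In the control comparison 9 other KLF and SP genes were called with no filter, against 4, and in the difference 2 with scaling, with the correction or without parental replicate 1, against 4. At the stricter thresholds the list counts lay between 0 and 11.

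Without single libraries the log2 difference with EGR1 ran from -0.11 to 0.094 for KLF4, from -0.091 to 0.059 for KLF5, from -0.11 to 0.15 for KLF9 and from -0.17 to 0.039 for PDGFA. It ran from -0.17 to 0.038 for KLF6 in MHCC97H, from -0.13 to 0.069 for KLF13 in the control comparison, and from -0.060 to 0.14 for KLF13 in the difference of the EGR1 comparisons.

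The replicate numbers did not show a pairing of the samples, and with 3 libraries per group the check cannot exclude it. Deviations of same-numbered libraries correlated at -0.132, 0.136 and -0.0758 in PLC/PRF5 and at 0.0317, 0.0302 and 0.467 in MHCC97H, and not every library correlated best with its own number. With the replicate number as a block, 0, 7, 7 and 5 factors were called with EGR1, in MHCC97H, in the control comparison and in the difference, and 0, 6, 8 and 4 with the block and the GC and length correction, which gave the same log2 differences as the correction alone. In that fit KLF4 in MHCC97H, at -0.19, was called lower (adjusted p = 0.0385 by limma), opposite to the call reported. The block alone moved no count by over 1.5 times.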
